A study of Mus musculus with 4 samples.

Results

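Circular RNAs (circRNAs) built from 1 exon that has an annotated intron on both sides were described across 4 sequencing libraries of C2C12 cells. C2C12 is an established mouse myoblast line that forms myotubes when serum is lowered. A circle belonged to the group if the deposited lists typed it as exonic, gave it 1 exon and gave an intron on each side. A circle was a chromosome, start, end and strand, and its entry with the most reads was used where libraries differed. There were 832 such circles, which is 20.4% of the 4074 exonic circles and a small part of the 69136 circles of all kinds. A further 131 circles of 1 exon lacked an intron on a side and were left out. The exon size given for each circle equalled the distance between its ends in all 832.

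Total RNA gave 2 libraries and RPAD, a treatment that depletes linear RNA, gave the other 2. The labels name no genetic change in any library, and all 4 came from cells held in medium with 2% horse serum for 3 to 4 days. RPAD consisted of RNase R digestion for 30 min, addition of poly(A) tails to the RNA that was left, and removal of poly(A)+ RNA. Whether the 2 libraries of a kind are separate cultures is not in the labels, so the spread behind the p-values may be technical. The labels' RNase R protocol mentions HeLa RNA, whereas every library is labelled C2C12, and this was not resolved. The transcript and gene identifiers in the lists matched no gene name table used here. Neither the muscle identity of the cells nor the host genes could therefore be checked, and circles are named by mm9 position.

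A circRNA forms when the spliceosome joins the 5' splice site at the end of an exon to the 3' splice site at the start of the same or an earlier exon, a reaction called back-splicing. In a single-exon circle both sites belong to the same exon. A first exon has no 3' splice site and a last exon has no 5' splice site, so neither can form one by this route. Long flanking introns and inverted repeats within them are known features of circularised exons, and abundant single-exon circles are known from unusually long exons. Because the ring has no free end, RNase R, which digests RNA from its 3' end, leaves it largely intact. A circle is counted here by the reads that cross its back-splice junction.

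More single-exon circles were listed in total RNA than after RPAD, while the numbers overlapped among circles with at least 5 reads in a library. Total RNA libraries 1 and 2 listed 431 and 347 of them, and RPAD libraries 1 and 2 listed 74 and 158. The means were 389 ± 59.4 and 116 ± 59.4 (SD, n = 2 each), and the ranges did not overlap. An exact two-sided permutation test gave p = 0.333, the smallest p that 2 libraries against 2 can give. The libraries differed in depth, with 38850 and 35981 back-splice reads in total RNA, against 150478 and 191246 in RPAD. When exonic reads were thinned to 15392 in each library, the mean numbers listed were 418.5, 347, 56.25 and 78.25. Counting only circles with at least 5 reads in a library, the numbers were 65 and 55 in total RNA and overlapped with 44 and 59 in RPAD (exact permutation p = 0.667). Relative to depth this minimum is laxer in RPAD, and no minimum was applied after thinning. How much of the difference lay in circles with few reads was therefore not tested at equal depth. Lists of all exonic circles differed in the same direction, with 2067, 1821, 499 and 777 entries.

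Reads on the 832 circles came to 1832 and 1595 in total RNA and to 5601 and 9986 in RPAD. As a share of exonic back-splice reads these were 11.3% (exact Clopper-Pearson 95% interval 10.8 to 11.8), 10.4% (9.89 to 10.9), 10.0% (9.76 to 10.3) and 10.9% (10.7 to 11.1). The shares overlapped between the 2 kinds of RNA (exact permutation p = 0.667). Reads per listed circle were 4.25 and 4.60 in total RNA, against 75.7 and 63.2 in RPAD. With exonic reads thinned to 15392 they were 4.17, 4.60, 27.4 and 21.4. The unthinned quantity in the 3006 multi-exon circles with introns on both sides was 9.15, 9.77, 123 and 140. Single-exon circles thus carried fewer reads each than multi-exon ones in all 4 libraries.

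The reads were concentrated on few circles, and more so after RPAD. The 10 most-read circles of a library held 39.5% and 40.0% of the single-exon reads in total RNA, against 83.5% and 84.0% in RPAD. Circles with just 1 read were 61.7% and 52.7% of the list in total RNA, against 17.6% and 33.5% in RPAD. Over all libraries, 439 of the 832 circles had 1 read, 60 had at least 20 and 26 had at least 100. By library, 704 were listed in 1 library, 89 in 2, 28 in 3 and 11 in all 4. Of the 832, 618 were seen only in total RNA, 147 only in RPAD and 67 in both. The same split of all exonic circles is not given, so it cannot be read as a trait of single-exon circles.

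Most of the circles came from exons of ordinary length, with a sharp lower edge at 100 nt. The median exon was 134 nt (quartiles 113 and 186), the shortest 82 nt and the longest 5772 nt. There were 0 circles under 80 nt, 4 of 80 to 89 nt, 12 of 90 to 99 nt, 139 of 100 to 109 nt and 120 of 110 to 119 nt. Exons inside multi-exon circles had no such edge, with 1498, 1294, 1221 and 1180 exon positions in the last 4 of these bins and 3117 below 80 nt. Exons under 100 nt were 1.86% and 1.73% of the single-exon lists in total RNA, against 1.35% and 1.90% in RPAD. The shares among exons of multi-exon circles were 34.7%, 36.3%, 37.2% and 35.6%. The difference averaged -34.2 percentage points and was negative in 4 of 4 libraries (exact two-sided sign-flip permutation p = 0.125, the smallest that 4 libraries can give). This comparison was added after seeing the data, with its cut at the edge itself, so its p only describes the edge.

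Spliced lengths of multi-exon circles, with all exons added up, had a median of 662.5 nt. Of the 3006 circles, 0 had a spliced length under 100 nt, and the shortest had 107 nt. Among the 65062 intronic circles, which consist of intron sequence, 190 (0.292%) were under 100 nt and the shortest had 36 nt. The sources used here do not state the read length, and its part in the edge was not tested.

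**Figure D1:**
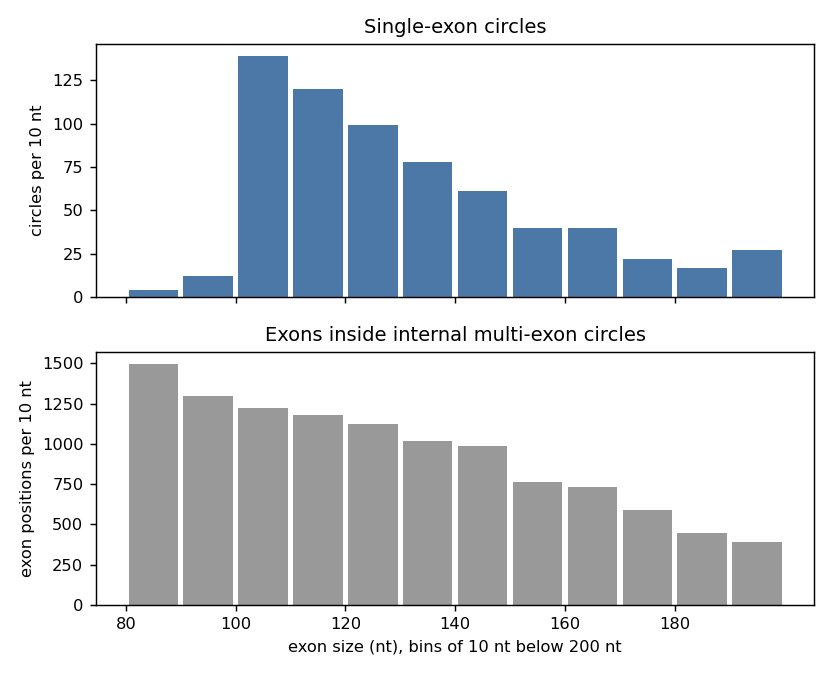
Exon size from 80 nt to below 200 nt in bins of 10 nt on the horizontal axis, with the number of single-exon circles (top) and of exon positions in multi-exon circles (bottom) on the vertical axes. Single-exon circles go from 12 at 90 to 99 nt to 139 at 100 to 109 nt, while exon positions inside multi-exon circles go from 1294 to 1221.

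Exon size separated thinly read circles from deeply read ones. Exons under 200 nt gave 659 of the 832 circles, and 102 circles (12.3%) had an exon of at least 500 nt. Mean reads per listed circle in the long class were 18.1 and 15.9 in total RNA, against 218 and 250.2 in RPAD. In the class under 200 nt they were 1.70 and 1.76 in total RNA, against 6.95 and 5.76 in RPAD. The long class was higher in 4 of 4 libraries (exact sign-flip p = 0.125). At least 20 reads in all were reached by 45 of the 102 long circles and by 15 of the 730 circles under 500 nt. Of the long class, 51.0% were listed in at least 2 libraries, against 10.4% of those under 500 nt. Across the 832 circles, Spearman's rho between exon size and summed reads was 0.33, and it was 0.48 over the 173 circles with at least 5 reads. These describe circles that share libraries and depth.

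**Figure D2:**
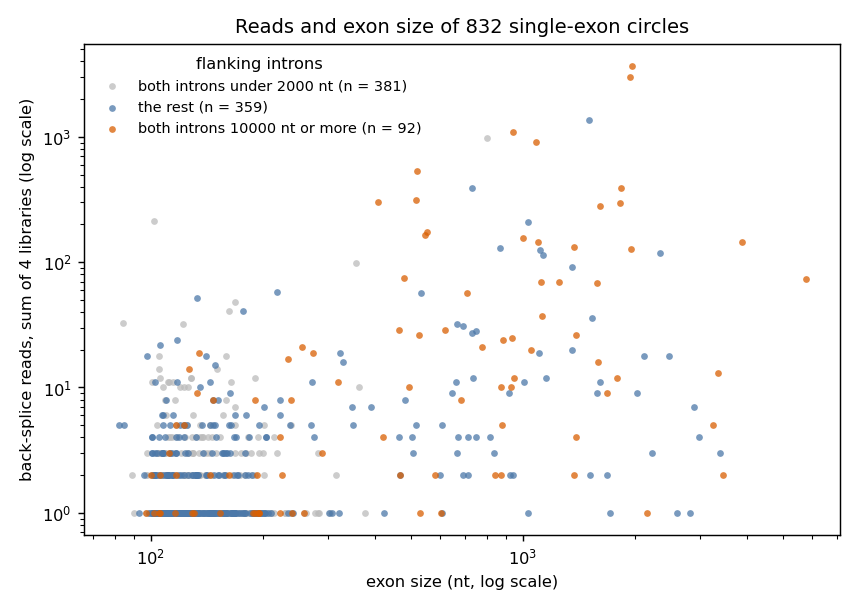
Each point is 1 of the 832 circles, with exon size in nt on the horizontal axis and reads summed over 4 libraries on the vertical axis, both on log scales, coloured by flanking intron class. The 439 circles with 1 read lie on the bottom line, mostly at short exons, and circles with both introns of at least 10000 nt (92 in all) are 33 of the 60 with at least 20 reads.

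RPAD reads lay less on exons under 200 nt than total RNA reads did, and more on exons of 1000 to under 2000 nt. Exons under 200 nt held 29.6% and 28.8% of the single-exon reads in total RNA, against 5.46% and 6.52% in RPAD, means of 29.2 ± 0.565 and 5.99 ± 0.747 (SD, n = 2 each). The ranges did not overlap (exact permutation p = 0.333, the smallest possible). Exons of 1000 to under 2000 nt held 32.5% and 33.9% in total RNA, against 56.0% and 72.4% in RPAD. The longest class, 2000 nt or more, went the other way, with 4.86% and 3.45% in total RNA, against 0.304% and 2.60% in RPAD. The classes of 200 to under 500 nt and of 500 to under 1000 nt overlapped. Without the most-read circle of each library, exons under 200 nt held 34.7%, 32.4%, 6.58% and 9.36% in the same library order. The gap narrowed when thinly read circles were left out. At 2 reads or more the shares were 19.7%, 20.3%, 5.28% and 6.09%, and at 5 reads or more 10.8%, 8.19%, 4.58% and 4.95%. The median over listed circles, which counts a circle once whatever its reads, showed no such separation at 135 and 142 nt in total RNA, against 168.5 and 135.5 nt in RPAD (exact permutation p = 0.667). The median exon size weighted by reads was 708 and 731 nt in total RNA, against 1084 and 1946 nt in RPAD. In RPAD 2 the weighted median equals the exon of 1 circle on chromosome 17 described below.

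**Figure D3:**
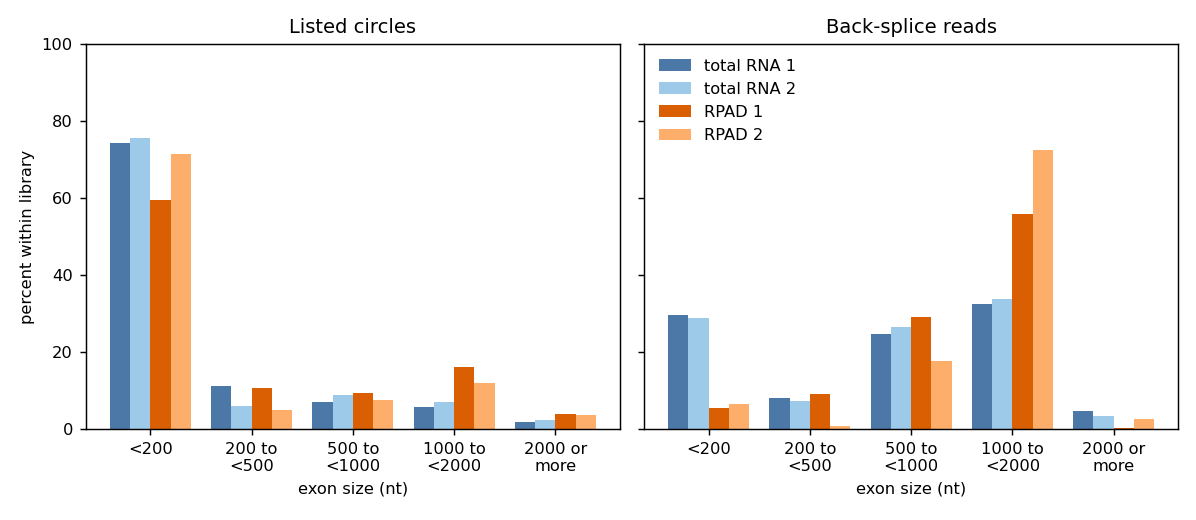
Percent of listed single-exon circles (left) and of their back-splice reads (right) in 5 exon size classes, 1 bar per library. By circles the class under 200 nt is the largest in every library (59.5% to 75.5%), whereas by reads the class of 1000 to under 2000 nt reaches 56.0% and 72.4% in the RPAD libraries.

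Circularised exons came from early and late positions, and exon 2 was less frequent than as the start of multi-exon circles. Of the multi-exon circles with introns on both sides, 27.8% started at exon 2. Exon 2 gave 173 circles (20.8%) and exon 3 gave 102, exons 4 and 5 together 177, exons 6 to 10 together 189 and later exons 191. The median exon number was 5 and the highest 168. Exon numbers depend on the transcript model that the lists assign, and 275 of the circles lay on models named as predicted. The same splice site could carry another number in another circle. Exon 2 on chromosome 3 (88769734 to 88770250), for example, shared its 3' splice site with a circle listed as exons 3 and 4. Exon 2 circles made up 23.4% and 23.3% of the list in total RNA, against 21.6% and 25.3% in RPAD, which overlapped. Their share of reads was 40.3% and 35.9% in total RNA, against 46.9% and 45.0% in RPAD. The RPAD 2 value rests on the chromosome 17 circle described below, without which it was 21%, under the exon 2 share of circles in that library. Position went with exon size: of circles of at least 500 nt, 54.0%, 51.6%, 45.5% and 64.9% were exon 2, against 15.3%, 15.6%, 9.09% and 13.3% of those under 200 nt. This difference averaged 40.6 percentage points and was positive in 4 of 4 libraries (exact sign-flip p = 0.125).

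The flanking introns of single-exon circles spanned a wide range and had similar medians on the 2 sides. The upstream intron had a median of 1418.5 nt (34 to 246602) and the downstream intron 1378.5 nt (60 to 179223), and the upstream one was the longer in 415 of 832. Across circles the 2 lengths had a Spearman's rho of 0.64, which describes pairs of introns of the same transcripts. Both introns were under 2000 nt in 381 circles (45.8%), against 17.5% of multi-exon circles. Both were at least 10000 nt in 92 circles (11.1%), against 16.7% of multi-exon circles. Those 92 circles held 55.6% and 47.1% of the single-exon reads in total RNA, against 69.8% and 71.6% in RPAD (59.2% in RPAD 2 without the chromosome 17 circle).

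Over all listed circles, single-exon circles had shorter introns than multi-exon circles. Among circles with at least 5 reads in a library, this order turned in every library but RPAD 1. The median longer flanking intron was 2642 and 2709 nt for single-exon circles in total RNA, against 4007.5 and 2852 nt in RPAD. For multi-exon circles the medians were 10037, 9136.5, 13050 and 11872 nt. The mean difference was -7971 nt, negative in 4 of 4 libraries (exact sign-flip p = 0.125). With at least 5 reads in the library the single-exon medians were 24722, 24694, 8722 and 13176 nt, and the multi-exon medians were 14498, 13176, 14107 and 12728 nt. That difference averaged 4201 nt and was negative only in RPAD 1 (exact sign-flip p = 0.375). The minimum of 5 reads is stricter relative to depth in total RNA, so depth and kind of RNA cannot be told apart here. With at least 2 reads the single-exon medians were 7069, 8144, 3960 and 3960 nt, all below the multi-exon medians of 12630.5, 10860, 13124 and 12293 nt.

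**Figure D4:**
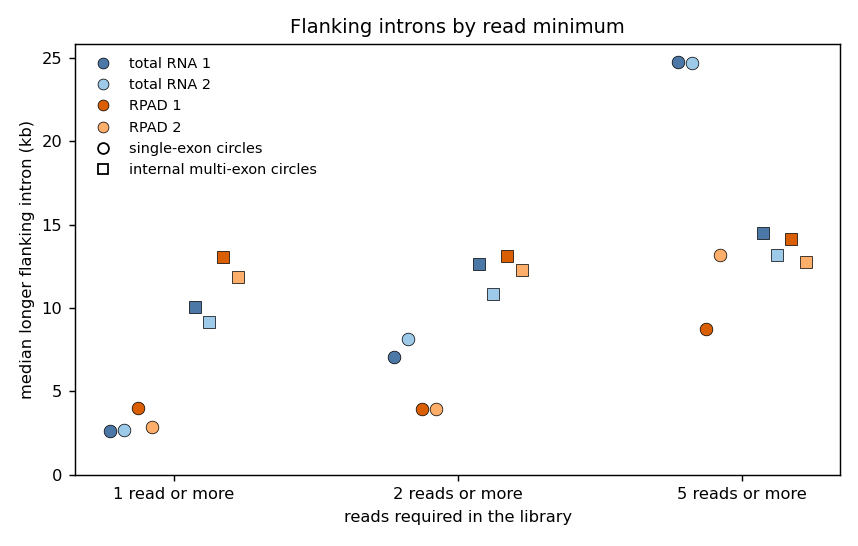
Median length of the longer flanking intron in kb (vertical axis) for single-exon circles (round) and multi-exon circles (square) in each library, at 3 read minimums (horizontal axis). Single-exon medians lie below multi-exon medians in all 4 libraries at 1 read or more, and above them in 3 of 4 libraries at 5 reads or more.

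Intron length went with exon size within the single-exon group. Circles of at least 500 nt had a median longer intron of 24113 and 29229 nt in total RNA, against 21918.5 and 35831 nt in RPAD. Circles under 200 nt had 1873, 1798.5, 1293 and 1971 nt. The difference was positive in 4 of 4 libraries (exact sign-flip p = 0.125). All of these features met in 32 circles from exon 2, with at least 500 nt and both introns of at least 10000 nt. These 32 held 25.4% and 21.3% of the single-exon reads in total RNA, against 45.2% and 41.1% in RPAD. Without the chromosome 17 circle, which is 1 of the 32, RPAD 2 had 15.5%, below both total RNA libraries.

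Reading frame was examined through exon size, since an exon whose size is a multiple of 3 can be skipped or circularised without shifting the frame. Such exons were 42.9% and 41.8% of single-exon circles in total RNA, against 39.2% and 39.9% in RPAD. The shares among exons of multi-exon circles were 43.4%, 43.6%, 49.4% and 43.0%. Single-exon circles were lower in 4 of 4 libraries, by 0.484 to 10.3 percentage points (mean -3.94, exact sign-flip p = 0.125). The mean was -1.84 without RPAD 1, -1.63 over junctions of score 0, where total RNA 1 had 1.14 in the other direction, and -23.3 when each read counted once. In RPAD 2 the count by reads leans on the chromosome 17 circle and the most abundant circle, both described below (3030 and 2281 reads). Neither size is a multiple of 3. An exon lying in several multi-exon circles was counted in each of them.

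The most abundant circle was exon 4 of its transcript on chromosome 4, minus strand, from 83937597 to 83939566. Its exon of 1970 nt lies between introns of 97226 and 15245 nt. It had 268 and 175 total RNA reads and 935 and 2281 RPAD reads. Per 10000 back-splice reads of a library these are 69.0, 48.6, 62.1 and 119, so the 2 kinds of RNA overlapped. The edgeR log2 fold change, RPAD against total RNA and relative to all circles tested, was 0.43 ± 1.05 (SE; adjusted p = 0.999).

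Several abundant circles differed more between the RPAD libraries than between kinds of RNA. Exon 2 on chromosome 11 (43518036 to 43518979, 944 nt) had 35 and 53 total RNA reads and 948 and 56 RPAD reads. The chromosome 6 circle of exon 2 (38768229 to 38769312, 1084 nt, introns of 56485 and 70232 nt) had 62 and 47 total RNA reads and 661 and 140 RPAD reads. Both lay high in RPAD 1, with log2 fold changes of 0.84 ± 1.80 and 0.22 ± 1.60 (edgeR adjusted p = 0.999 each). The chromosome 17 circle of exon 2 (6137211 to 6139156, 1946 nt, introns of 30214 and 37672 nt) was read 3030 times in RPAD 2 and not at all in the other 3 libraries. It was the most-read single-exon circle of any library and rests on that library alone.

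The same unevenness was seen further down the list. Exon 3 on chromosome 14 (47635952 to 47636470, 519 nt) had 50 and 60 total RNA reads, 0 in RPAD 1 and 426 in RPAD 2. On chromosome 12, exon 2 (83441649 to 83443486, 1838 nt) had 0 and 16 total RNA reads and 377 and 0 RPAD reads. On chromosome 7, exon 2 (75148696 to 75149241, 546 nt) had 67 and 29 total RNA reads and 0 and 70 RPAD reads. Per 10000 back-splice reads the groups overlapped for the chromosome 14 and 12 circles, while the chromosome 7 circle had 17.2 and 8.06 against 0 and 3.66. Single libraries decided their calls. The edgeR adjusted p was 0.999 for all 3, but 0.00149 and 0.00223 for the chromosome 14 and 7 circles without RPAD 2, and 0.0490 for the chromosome 12 circle without RPAD 1. Exon 3 on chromosome 8 (93456148 to 93457761, 1614 nt) had close values within each kind by contrast, with 52 and 46 total RNA reads and 83 and 100 RPAD reads. Scaled to 10000 reads this is 13.4, 12.8, 5.52 and 5.23, which did not overlap, with a log2 fold change of -1.57 ± 1.80 (edgeR adjusted p = 0.999).

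**Figure D5:**
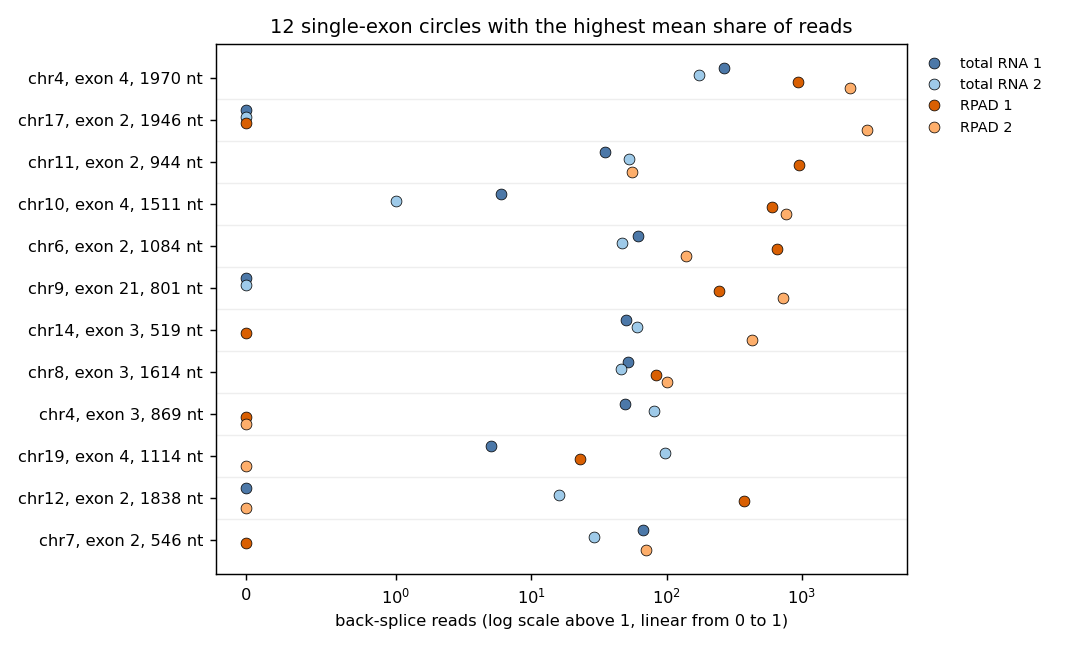
Back-splice reads (horizontal axis, log scale above 1 and linear from 0 to 1) of the 12 single-exon circles with the highest mean share of reads, 1 row per circle and 1 point per library. Points at the left edge are 0 reads, and the chromosome 17 circle has 3030 reads in RPAD 2 and 0 elsewhere.

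Of these 12 circles, 2 had a higher share of back-splice reads in both RPAD libraries than in both total RNA libraries. Exon 3 on chromosome 8 (1614 nt) and exon 2 on chromosome 7 (546 nt), given above, had a lower share in both. So did exon 3 on chromosome 4 (869 nt), given below. How often all circles separated in this way is not given, so neither direction can be called particular to single-exon circles. Exon 4 on chromosome 10 (7421408 to 7422918, 1511 nt) had 6 and 1 total RNA reads and 605 and 759 RPAD reads, or 1.54, 0.278, 40.2 and 39.7 per 10000 reads. Its introns had 3960 and 2339 nt. The log2 fold change was 5.05 ± 1.98 (edgeR adjusted p = 0.270; 0.00556 to 1.00 over the alternatives, with 0.00556 without RPAD 1 and 0.0174 without RPAD 2). Exon 21 on chromosome 9 (49314958 to 49315758, 801 nt, introns of 935 and 1289 nt) had no total RNA read and 245 and 728 RPAD reads. Against a floor of 3 reads over both total RNA libraries, its share of back-splice reads was at least 71.0-fold higher in RPAD (edgeR adjusted p = 0.179; 2.66e-05 to 1.00 over the alternatives, with 2.66e-05 without RPAD 1 and 0.00717 without RPAD 2). Neither passed the threshold in the main test.

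Other circles were read in total RNA and not in RPAD. Exon 3 on chromosome 4 (108151478 to 108152346, 869 nt) had 49 and 81 total RNA reads and was read in neither RPAD library. Its share was at least 198-fold lower in RPAD against a floor of 3 reads over both RPAD libraries (edgeR adjusted p = 0.179; 0.000756 to 1.00 over the alternatives, with 0.00651 without RPAD 1 and 0.000756 without RPAD 2). Exon 2 on chromosome 3 (51659421 to 51660998, 1578 nt) had 46 and 22 total RNA reads and 0 after RPAD, which put its share at least 104-fold lower. Its introns of 246602 and 157655 nt include the longest upstream intron of the whole set. A second circle on chromosome 3, also of exon 2 (90417665 to 90417826, 162 nt, introns of 516 and 286 nt) had 23 and 18 total RNA reads and 0 after RPAD, at least 62.4-fold lower. Circles without RPAD reads thus included both a long exon between very long introns and a short exon between short ones. In all, 12 circles with at least 20 reads were seen only in total RNA, of which 11 were in both total RNA libraries. Of 13 such circles seen only in RPAD, 2 were in both RPAD libraries. The matching counts over all exonic circles are not given, so these counts cannot be called particular to single-exon circles.

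The remaining named circles seen only in total RNA were mostly long exons near the start of their transcripts. They were chosen for their reads or for a small edgeR p. In total RNA alone, exon 5 on chromosome 4 (87486586 to 87487293, 708 nt) had 48 and 9 reads, and exon 2 on chromosome 7 (123560967 to 123562095, 1129 nt) had 33 and 4. Their shares were at least 86.8-fold and 56.3-fold lower in RPAD. Fewer reads lay on exon 2 on chromosome 3 (60332678 to 60333726, 1049 nt; 10 and 10 reads), exon 3 on chromosome 6 (39472655 to 39473758, 1104 nt; 9 and 10) and exon 4 on chromosome 7 (134356932 to 134357036, 105 nt; 6 and 8). The last of these was the only exon near 100 nt among them. Over the 8 named circles seen only in total RNA, edgeR adjusted p-values were 0.179 to 0.214. They fell to between 0.00651 and 0.0490 without RPAD 1 and to between 0.000756 and 0.0310 without RPAD 2. Without either total RNA library they were 0.955 to 1.00, and with a replicate block 1.00.

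Circles seen only after RPAD rested mainly on 1 library each. Exon 19 on chromosome 11 (102705454 to 102705555, 102 nt) had 214 reads in RPAD 2 and 0 in RPAD 1. Exon 15 on chromosome 2 (90617722 to 90618077, 356 nt) had 99 in RPAD 1 and 0 in RPAD 2. Exon 2 on chromosome 11 (20625688 to 20627642, 1955 nt) was listed in both, with 126 and 1. Outside this set, exon 2 on chromosome 3 (88769734 to 88770250, 517 nt) had 1 and 6 total RNA reads and 308 and 0 RPAD reads, and exon 3 on chromosome 11 (104285236 to 104286607, 1372 nt) had 0 and 2 against 0 and 131. In each of these 5, nearly every RPAD read came from a single library.

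Circles listed in all 4 libraries were not limited to the most-read ones. Exon 2 on chromosome 8 (89384325 to 89386009, 1685 nt) had 2 and 3 total RNA reads and 2 and 2 RPAD reads. Exon 5 on chromosome 12 (8941672 to 8941794, 123 nt) had 1 and 1 total RNA reads and 6 and 2 RPAD reads, and it was the only one of the 11 with an exon under 500 nt. The longest exon of the set, exon 2 on chromosome 15 (82681943 to 82687714, 5772 nt, introns of 54701 and 26188 nt), was also among the 11. It had 38 and 22 total RNA reads and 6 and 8 RPAD reads, with a log2 fold change of -4.55 ± 2.24 (edgeR adjusted p = 0.485; 0.0466 without RPAD 2). Its scaled values, 9.78 and 6.11 per 10000 reads in total RNA, against 0.399 and 0.418 in RPAD, did not overlap.

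Tested across all circles with edgeR's quasi-likelihood test, RPAD against total RNA gave 0 single-exon circles past an adjusted p of 0.05 among the 52 that passed the filter on low counts. The background was 0% of 924 circles tested. At an unadjusted p under 0.05, 2 of the 52 were higher and 16 lower in RPAD, where the background was 1.73% higher and 15.8% lower. Of the 924, 462 were exonic. A fit over these exonic circles alone gave 12 higher and 129 lower, of which 2 and 16 were single-exon circles. The lower ones thus cannot be called particular to single-exon circles. The other backgrounds here mix exonic and intronic circles. Of the 52, 16 were without a read after RPAD and 1 was without a read in total RNA, and 780 of the 832 were not tested. DESeq2 with its independent filtering called 11 of the 52, 1 higher and 10 lower (background 8.44%), and 0 without that filtering. Leaving out RPAD 1 gave 17 calls with edgeR, 2 higher and 15 lower (background 19.9%), and leaving out RPAD 2 gave 28, 2 higher and 26 lower (background 23.2%). The median log2 fold change of all 924 circles was -0.15, against -1.57 for the 52. These medians were -1.54 and -2.14 without RPAD 1 and -1.17 and -7.04 without RPAD 2, and -0.81 and -1.78 over exonic circles alone.

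Single-exon circles with at least 20 reads in a total RNA library were nearly always found again in the other one. Total RNA 1 and 2 shared 93 circles, 21.6% of the first list and 26.8% of the second. Of circles with at least 20 reads in one, 15 of 16 and 12 of 12 were listed in the other. The RPAD libraries shared 18 circles, 24.3% and 11.4% of their lists, and of circles with at least 20 reads 9 of 22 and 9 of 27 were listed in the other. Recovery was higher among better-read circles in both kinds of RNA, while in RPAD most circles with at least 20 reads were still absent from the other library. The same minimum is laxer relative to depth in RPAD, so the 2 kinds are not compared at like abundance. At 5 reads or more, 35 of 65 and 32 of 55 were listed in the other total RNA library. In RPAD 13 of 44 and 12 of 59 were. There were 24 circles that reached 5 reads in each total RNA library. RPAD listed 7 of them in both of its libraries, 6 in 1 and 11 in neither, so 54.2% were recovered (exact 95% interval 32.8 to 74.4). With at least 20 reads in both, 8 of 10 were recovered (80.0%, 44.4 to 97.5). The 2 that were not are the chromosome 4 exon 3 and chromosome 3 exon 2 circles given above.

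Some single-exon circles shared a splice site with a larger circle, so that the same site was joined in different ways. Of the 832 circles, 149 (17.9%) shared an end with another exonic circle and 191 (23.0%) lay within a multi-exon circle. Among the 60 with at least 20 reads, 25 shared an end, and the single-exon circle had more reads than its partners in 15 of them. Over all 149, it had more reads in 39 and its partners had more in 88, with 6807 reads against 28805. The chromosome 4 circle absent from RPAD (49, 81, 0 and 0 reads) shares its 3' splice site with a circle of exons 3 and 4 that had 11 and 15 total RNA reads and 270 and 0 RPAD reads. Exon 4 on chromosome 19 (28605363 to 28606476, 1114 nt) had 5 and 98 total RNA reads and 23 and 0 RPAD reads (edgeR adjusted p = 0.809; 0.0161 without RPAD 1). A circle of exons 3 and 4 with the same 5' splice site had 0 and 6 total RNA reads and 35 and 657 RPAD reads. In both cases the single-exon form had more reads in total RNA and the larger form more in RPAD, in the summed reads of these pairs.

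The chromosome 15 circle of 5772 nt also shared a splice site. The circle of its exons 2 and 3 had 34 and 46 total RNA reads and 107 and 12 RPAD reads. By contrast, the chromosome 10 circle that was high in RPAD outnumbered a circle of exons 2 to 4 with the same 5' splice site, which had 189 reads in RPAD 2 and 0 elsewhere. The shortest exon with at least 20 reads, exon 128 on chromosome 2 (76691662 to 76691745, 84 nt), had 1 and 4 total RNA reads and 28 and 0 RPAD reads. It shares a 5' splice site with a circle of 5 exons that had 1212 and 1093 total RNA reads and 3371 and 3383 RPAD reads. That larger circle outnumbered it in all 4 libraries.

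Most transcripts gave a single such circle. Of 758 host transcripts, 705 had 1, 44 had 2, 5 had 3 and 4 had more, with a maximum of 8. Transcript ENSMUST00000097700 on chromosome 1 gave 8 circles from exons 7 to 30, with exons of 117 to 192 nt and 20 reads in all. Transcript ENSMUST00000036934 on chromosome 2 gave 7 from exons 12 to 111, all 105 to 108 nt, with 25 reads in all. Transcript ENSMUST00000074622 on chromosome 1 gave 5 from exons 3 to 7, each read only in total RNA, with 20 reads in all. The single-exon circles of these hosts were thus thinly read, as 20 to 25 reads were spread over 5 to 8 circles. Reads on other circles of the same hosts are not in these sums. Of the 832 circles, 126 (15.1%) had an intronic circle in a flanking intron, 62 in the upstream and 75 in the downstream one. This was the case for 17.5% of circles under 200 nt and 2.94% of those of at least 500 nt.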

How the data were processed

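Every library has 1 deposited list, which gives back-splice junction reads as raw counts per circle, per the file headers. A deposited score of 0 to 3 per junction, per the file headers, has no meaning given in the sources used here and served only in an alternative. The libraries were depleted of ribosomal RNA, per the labels' protocols, and cDNA was amplified with the NuGEN system and 17 PCR cycles. Per the submitters' processing notes, cutadapt, TopHat, Cufflinks 2.2.1 and mm9 were used, with no junction caller named in the sources used here. Intervals and floors cover counting error only, since reads carry no molecular identifiers.

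Positions count from 1. Of 1516 transcript and gene identifiers listed for the single-exon circles, 0 matched the gene name tables, so no gene name or sequence is given. The counts were tested with edgeR 4.0.16 in R 4.3.3 (quasi-likelihood F test, TMM, filterByExpr with a minimum count of 5 and total of 10, Benjamini-Hochberg adjusted p under 0.05), and with DESeq2 1.42.0 as an alternative. The SE is the log2 fold change divided by the square root of F. The edgeR fit was tried on simulated data of lower dispersion than the common dispersion of 2.55 estimated here. Its performance at the dispersion of these data was not tested. Values per library were compared by exact two-sided permutation of libraries (RPAD against total RNA) or sign-flip permutation (within library). Thinned values are means of 20 draws. Software was matplotlib 3.10.9, scipy 1.17.1, pandas 2.3.3 and numpy 2.4.6 under Python 3.11.15.

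Named circles are the 12 with the highest mean share, the 4 of smallest p per direction, the 5 most read in each kind of RNA with 0 in the other, and the shortest and longest exon with at least 20 reads. Partner circles, circles in all 4 libraries and transcripts with several circles were named after their values were seen. Members, lists and alternatives were chosen with earlier results of these data known. Same-numbered libraries were not paired, since their deviations correlated at r = 0.0463 over 924 circles.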

Additional observations from a re-analysis of the deposited data

How the results depend on the processing

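Among alternatives to the summary results, 13 reversed in direction and 4 counts or shares moved. The tests over libraries cannot give a p under 0.05, so only direction and size can be read from the rest, and sizes could change much: the difference in circles listed went from -273 to -8.5 at 5 reads or more. Over the 15 named circles whose value was recomputed here, 6 values reversed and 27 crossed the threshold, the latter when an RPAD library was left out or with DESeq2. Circles whose p the report alone gives are not in this tally. In the order of the report, RPAD minus total RNA reversed for the share of exonic reads when 1 library was left out (-0.885 to 0.0759 percentage points). It reversed for the median exon size at 2 reads or more (-11.25 nt), at 5 or more (-197.5 nt) and with 1 library left out (-3 to 30.0 nt). The share at exon 2 became -9.02 and -15.8 percentage points at those minimums, -1.62 with junctions of score 0 only, and -1.77 to 1.93 with 1 library left out. The median longer intron became -3646.5 and -13759 nt at 2 and 5 reads or more. Against multi-exon circles, exon size changed to -542 nt when their total spliced length replaced the mean exon, and the longer intron to 4201 nt at 5 reads or more. Recovery in RPAD moved to 80.0% at 20 reads or more. Circles called moved from 0 to 11 with DESeq2 and ranged from 0 to 28 with 1 library left out; the lone library left in a group is then assumed to vary like the others. The cause of these changes was not tested.

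A replicate block in the edgeR model left 0 single-exon circles called, and the block changed the log2 fold change of the chromosome 11 circle (43518036 to 43518979) to -0.0784 and that of the chromosome 6 circle to -0.00617. With 1 library left out, these ranged from -1.66 to 1.66 and from -0.68 to 0.81, and that of the most abundant circle from -0.72 to 1.32. Library totals in place of TMM moved the median log2 fold change of all circles from -0.15 to 0.04, and DESeq2 size factors moved it to 0.19. DESeq2 without independent filtering was added after seeing the data. The tests on exons under 100 nt and on the read share of exons under 200 nt were also added then. The same holds for the tests of circles of at least 500 nt against those under 200 nt. With 439 of 832 circles at 1 read, depth limits every count of circles listed.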
